A study of Mus musculus with 3 samples.

Results

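The microRNAs cut from the antisense transcript of Rtl1 were measured by qRT-PCR in mouse neural stem cells (NSCs), embryonic stem cells (ESCs) and embryonic fibroblasts (MEFs). All assays that carry the number of a microRNA of this transcript were taken, on any arm and with star strands included, which gave 10 of 709 microRNA assays. Plate 1, with 380 assays, held mmu-miR-431, mmu-miR-433, mmu-miR-127, mmu-miR-434-5p, mmu-miR-434-3p and mmu-miR-136, and plate 2 held the 4 star assays, mmu-miR-431*, mmu-miR-433*, mmu-miR-127* and mmu-miR-136*. The prefix for mouse is left out below. The NSCs came from the forebrain of mouse fetuses, had been made in an earlier study, and were grown on Matrigel with FGF-basic and PDGF-AA. ESCs are pluripotent cells derived from early embryos, and MEFs are embryo-derived fibroblasts. The strain, the ESC line and the use of feeder cells are not given in the sources used here, and no cell type carried a mutation or a treatment according to the labels. Total RNA was pooled in equal amounts, from how many cultures is not given, so there was 1 sample per cell type and 2 PCR runs of it. No p-value is therefore given, and each error is that of the PCR runs of the assay alone.

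Rtl1 lies in the imprinted Dlk1-Dio3 region and descends from a retrotransposon. It is expressed from the paternal chromosome and is needed in the placenta. The maternal chromosome makes a transcript that runs in the opposite direction through Rtl1, and the microRNAs cut from it are fully complementary to the Rtl1 mRNA and direct its cleavage in the mouse. The region is known to be active in the embryo, the placenta and the brain, and the activity of its maternal genes is known to vary among mouse pluripotent cell lines.

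The 5 hairpins lie on the plus strand of chromosome 12 (GRCm38.p6, RefSeq), and all 5 fall inside the Rtl1 gene interval of the RefSeq gene table. They are Mir431 at chr12:109590447-109590537, Mir433 at chr12:109591715-109591838, Mir127 at chr12:109592846-109592915, Mir434 at chr12:109594506-109594599 and Mir136 at chr12:109595327-109595388. Together they span 4942 nt, and neighbours are 727 to 1590 nt apart. The mature arms from RefSeq are shown because the results differ between the arms of a hairpin. The seed, bases 2 to 8, which sets most of the pairing with other mRNAs, is in capitals.
miR-431-5p: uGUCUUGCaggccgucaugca
miR-431-3p: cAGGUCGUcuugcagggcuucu
miR-433-5p: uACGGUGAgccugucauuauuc
miR-433-3p: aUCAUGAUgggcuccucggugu
miR-127-5p: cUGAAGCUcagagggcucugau
miR-127-3p: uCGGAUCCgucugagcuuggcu
miR-434-5p: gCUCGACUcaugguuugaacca
miR-434-3p: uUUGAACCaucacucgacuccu
miR-136-5p: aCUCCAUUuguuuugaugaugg
miR-136-3p: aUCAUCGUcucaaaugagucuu

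The 10 arms have 10 different seeds, and 0 of these seeds occur in another mature microRNA of the RefSeq table. The arms are 21 or 22 nt long, with a GC content between 36.4% for both arms of miR-136 and 59.1% for miR-431-3p and miR-127-3p. The arms of miR-431 share a run of 10 nt in the same orientation, gucuugcagg, and those of miR-434 a run of 9 nt, uuugaacca, against runs of 4 or 5 nt in the other 3 hairpins. The deposited tables name the arm only for miR-434. In later nomenclature the assay names miR-431 and miR-136 stand for 5p arms, miR-433 and miR-127 for 3p arms, and a star marks the opposite arm. The deposited tables hold no primer sequences, so the arm behind each assay was taken from its name.

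The deposited values are Ct values, the cycle at which the PCR product is detected, and 1 cycle earlier means about 2 times as much RNA. To obtain a delta Ct, the average Ct of the reference RNAs U6, RNU43 and U1 on the same plate and in the same cell type was subtracted from the average of both runs. The reference average was 23.93 in NSCs, 25.89 in ESCs and 24.35 in MEFs on plate 1, and 24.07, 26.16 and 24.39 on plate 2. RNU43 had 1 measured well on plate 1 in ESCs. A log2 fold is a difference of delta Ct values, and an assay was called when its fold was at least 4, its runs did not overlap between the cell types, and the cell type with more of it had a mean Ct of at most 32. Runs lay a median of 0.169 cycles apart in NSCs up to a Ct of 32 and 0.548 cycles above it, and the gaps in ESCs (0.168 and 0.653) and MEFs (0.152 and 0.520) were alike.

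The cell types were checked with marker microRNAs. Of miR-9, miR-9*, miR-124 and miR-219, known from neural cells, 3 of 4 were called higher in NSCs than in ESCs and than in MEFs. All 7 microRNAs of the miR-290 and miR-302 clusters on the list for pluripotent cells were called higher in ESCs than in MEFs. The list of fibroblast microRNAs (miR-199a-3p, miR-199a-5p, miR-214, miR-143, miR-145 and miR-196a) was also high in the ESC sample. Its summed level on the log2 scale was -3.69 in NSCs, 0.29 in ESCs and 1.75 in MEFs, and 3 of the 6 were later than a Ct of 32 in NSCs, against 0 in ESCs and 0 in MEFs. The part of these fibroblast microRNAs, and of any cells that carry them, in the ESC values below was not tested.

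In all 9 assays of the Rtl1 antisense microRNAs that could be compared, the mean level in NSCs was below that in ESCs and below that in MEFs. Of all assays measured in both, the NSC level was also below ESCs in 444 of 678 and below MEFs in 462 of 685. Against ESCs, 3 of 9 were called lower and 0 higher, namely miR-431, miR-434-5p and miR-434-3p, where 14.9% of the 678 assays measured in both cell types were called lower and 2.95% higher. Against MEFs, 6 of 9 were called lower and 0 higher, with miR-136, miR-136* and miR-433* added to the same 3, where 13.9% of 685 assays were called lower and 1.75% higher. Between ESCs and MEFs 1 of 9 was called, miR-136, which was lower in ESCs, where 3.24% of all assays measured in both were called lower and 5.3% higher. In a bulk sample, fewer cells that make a microRNA and less of it per cell cannot be told apart. The comparisons against ESCs and MEFs share the NSC sample.

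**Figure D1:**
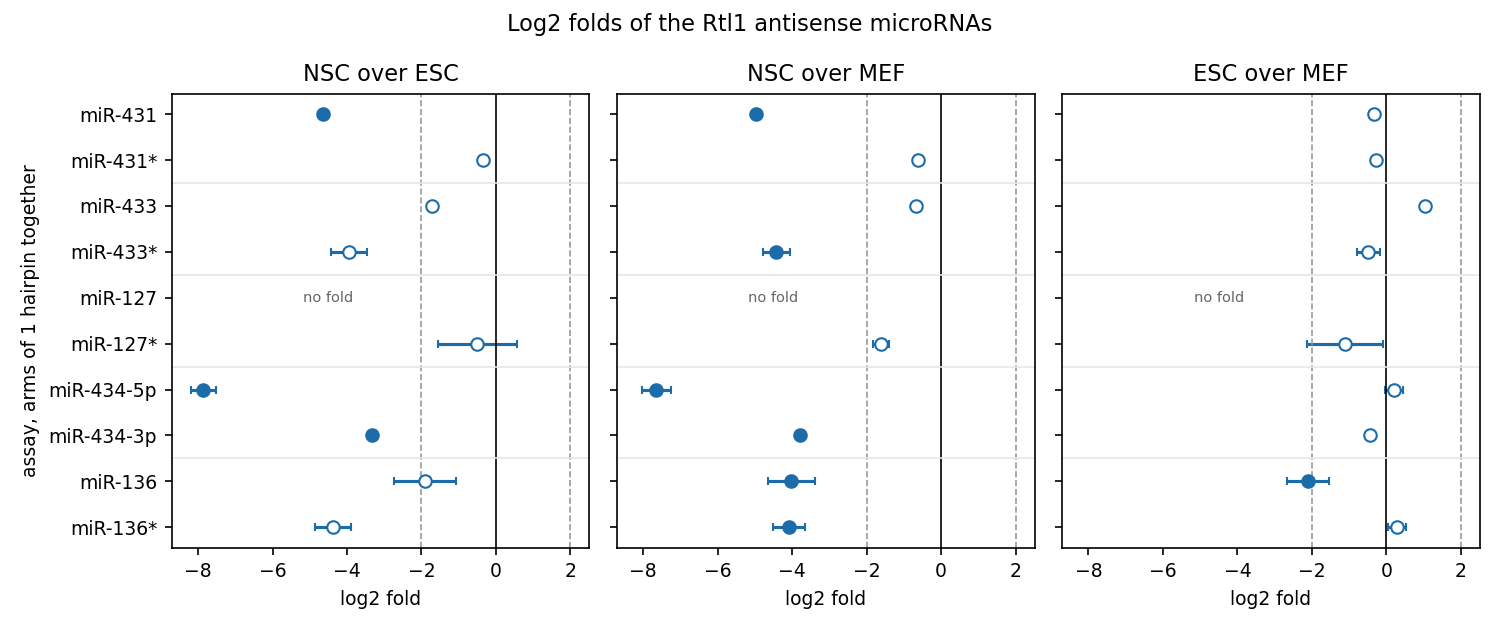
Log2 fold of each assay for NSCs over ESCs, NSCs over MEFs and ESCs over MEFs, with the arms of a hairpin between grey lines, error bars of the PCR runs, filled points for called assays and dashed lines at 4-fold. All 9 points lie below 0 in both NSC panels, between -0.36 and -7.86 over ESCs and between -0.62 and -7.65 over MEFs, while the ESC over MEF points lie between -2.11 and 1.05. Among all assays, not drawn here, 444 of 678 lie below 0 for NSCs over ESCs and 462 of 685 for NSCs over MEFs.

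The MEF values carry a further limit. The MEF Ct values in the spreadsheet that accompanies the publication differ from the deposited ones in every well of the 709 assays that has a value in both. No such comparison is given here for the NSC and ESC values. With that set, an alternative chosen after seeing the data, 1 of the 6 calls against MEFs was left, that of miR-434-5p. With it 3 assays, miR-431, miR-434-5p and miR-434-3p, were called higher in ESCs than in MEFs, and miR-136 was not called. The share of all assays called with that set was not computed, so these counts are not read as a result about the members. The deposited MEF values are used in what follows, and the NSC over ESC comparison does not depend on them.

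miR-431 is known in the mouse from axon regrowth and from muscle satellite cells. Its runs had a Ct of 31.82 and 31.68 in NSCs, 29.14 and 28.98 in ESCs, and 27.26 and 27.12 in MEFs. NSC runs were the latest although the mean of the reference RNAs was earliest in NSCs, and no runs overlapped after its subtraction. The log2 fold was -4.65 ± 0.11 for NSCs over ESCs, a 25.0-fold lower level, and -4.97 ± 0.10 for NSCs over MEFs, 31.4-fold lower. ESCs and MEFs were close, with a log2 fold of -0.32 ± 0.11 for ESCs over MEFs. The star strand of the same hairpin was not called in any comparison. miR-431* had a Ct of 30.44 and 30.51 in NSCs, 32.21 and 32.20 in ESCs, and 30.19 and 30.16 in MEFs. Its log2 folds were -0.36 ± 0.04 for NSCs over ESCs, -0.62 ± 0.04 for NSCs over MEFs and -0.27 ± 0.01 for ESCs over MEFs, all below 4-fold. With RNU43 alone as the reference both NSC folds of miR-431* turned above 0, to 0.62 over ESCs and 0.49 over MEFs, with the median of all assays then at 0.56 and 0.67.

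miR-433 was the member with the earliest NSC wells. It had a Ct of 27.88 and 27.95 in NSCs, 28.24 and 28.08 in ESCs, and 27.62 and 27.70 in MEFs. After subtraction of the reference its level was highest in ESCs and lowest in NSCs, with the runs of the 3 cell types apart. The log2 fold was -1.72 ± 0.09 for NSCs over ESCs, -0.67 ± 0.05 for NSCs over MEFs and 1.05 ± 0.09 for ESCs over MEFs, and none reached 4-fold. The fold over MEFs turned to 0.53 with RNU43 alone and 0.15 with the mean of the microRNAs as the reference. With U6 alone or U1 alone miR-433 was called lower in NSCs than in ESCs. Its star strand, miR-433*, came at a Ct of 35.06 and 34.32 in NSCs, 32.53 and 33.15 in ESCs, and 30.58 and 30.60 in MEFs. miR-433* was called lower in NSCs than in MEFs, at -4.42 ± 0.37 or 21.5-fold, but with late wells set to a Ct of 32 the fold was -1.73 and the call was lost. Its fold over ESCs was of like size, -3.94 ± 0.48, but was not called because the ESC wells were later than a Ct of 32. miR-433* was close in ESCs and MEFs, at -0.48 ± 0.31 for ESCs over MEFs.

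miR-127, known early as an imprinted microRNA and for its role in placental vessels of the mouse, had a value in MEFs alone. Its MEF runs had a Ct of 26.24 and 26.37, a delta Ct of 1.96, which ranked 49 from the highest level among the 373 assays of plate 1 measured in MEFs. All NSC and ESC wells of miR-127 were without a value. An empty well can be a product that was not detected or a well that failed, so no fold is given. Of all assays, 21 were empty in both NSCs and ESCs, and 7 of these, miR-127 included, had a MEF Ct of at most 32. The star strand, miR-127*, was measured in every well, at a Ct of 31.49 and 31.93 in NSCs, 34.33 and 32.27 in ESCs, and 30.43 and 30.41 in MEFs. ESC runs were more than 2 cycles apart, and those of NSCs fell between them after subtraction of the reference. The log2 fold of miR-127* was -1.11 ± 1.03 for ESCs over MEFs, with an error about as large as the difference. It was -0.50 ± 1.05 for NSCs over ESCs, within its error, and -1.61 ± 0.22 for NSCs over MEFs, which was below 4-fold but past it with U6 alone or U1 alone as the reference.

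miR-434, known from mouse and rat, includes the assay with the lowest NSC folds among the 9 assays with a fold, miR-434-5p. miR-434-5p had a Ct of 33.19 and 32.56 in NSCs, 27.10 and 26.85 in ESCs, and 25.86 and 25.42 in MEFs. ESCs and MEFs overlapped in their runs after subtraction of the reference, at a log2 fold of 0.21 ± 0.25 for ESCs over MEFs, and NSCs stood far below both. The log2 fold was -7.86 ± 0.34 for NSCs over ESCs, 232-fold lower, and -7.65 ± 0.38 for NSCs over MEFs, 201-fold lower. The NSC wells were later than a Ct of 32, and with them set to 32 the log2 folds were -6.99 over ESCs and -6.78 over MEFs. With the wells as measured and RNU43 alone as the reference they were -6.88 and -6.45. Within the NSC sample miR-434-5p ranked 267 from the highest level of 360 assays measured on plate 1, against 29 of 356 in ESCs and 33 of 373 in MEFs. The other arm, miR-434-3p, had a Ct of 30.36 and 30.34 in NSCs, 29.05 and 28.90 in ESCs, and 26.90 and 27.05 in MEFs. It was called in both NSC comparisons, at -3.34 ± 0.08 over ESCs, 10.1-fold lower, and -3.79 ± 0.07 over MEFs, 13.8-fold lower, and was at -0.45 ± 0.11 for ESCs over MEFs.

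miR-136 was late in both stem cell samples. Its Ct was 34.16 and 32.92 in NSCs, 34.16 and 33.03 in ESCs, and 30.01 and 29.87 in MEFs, so that runs of the stem cell samples were each more than 1 cycle apart. The log2 fold was -4.02 ± 0.62 for NSCs over MEFs, 16.2-fold lower, and -2.11 ± 0.57 for ESCs over MEFs, 4.31-fold lower, and both were called. The ESC over MEF call did not hold under most alternatives, among them U6 alone, RNU43 alone and the second run alone. Leaving out late assays or using only runs within 1 cycle removed miR-136 from both comparisons, so neither setting tests its calls. Over ESCs it was -1.91 ± 0.84, below 4-fold. miR-136* had a Ct of 35.44 and 34.60 in NSCs, 32.48 and 32.98 in ESCs, and 31.21 and 31.29 in MEFs. It was called lower in NSCs than in MEFs, at -4.09 ± 0.42 or 17.0-fold, but with late wells set to a Ct of 32 the fold was -1.07 and the call was lost. The runs of ESCs and MEFs overlapped, at 0.28 ± 0.25 for ESCs over MEFs. Its fold over ESCs, -4.37 ± 0.49, was not called because the ESC wells were later than a Ct of 32.

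**Figure D2:**
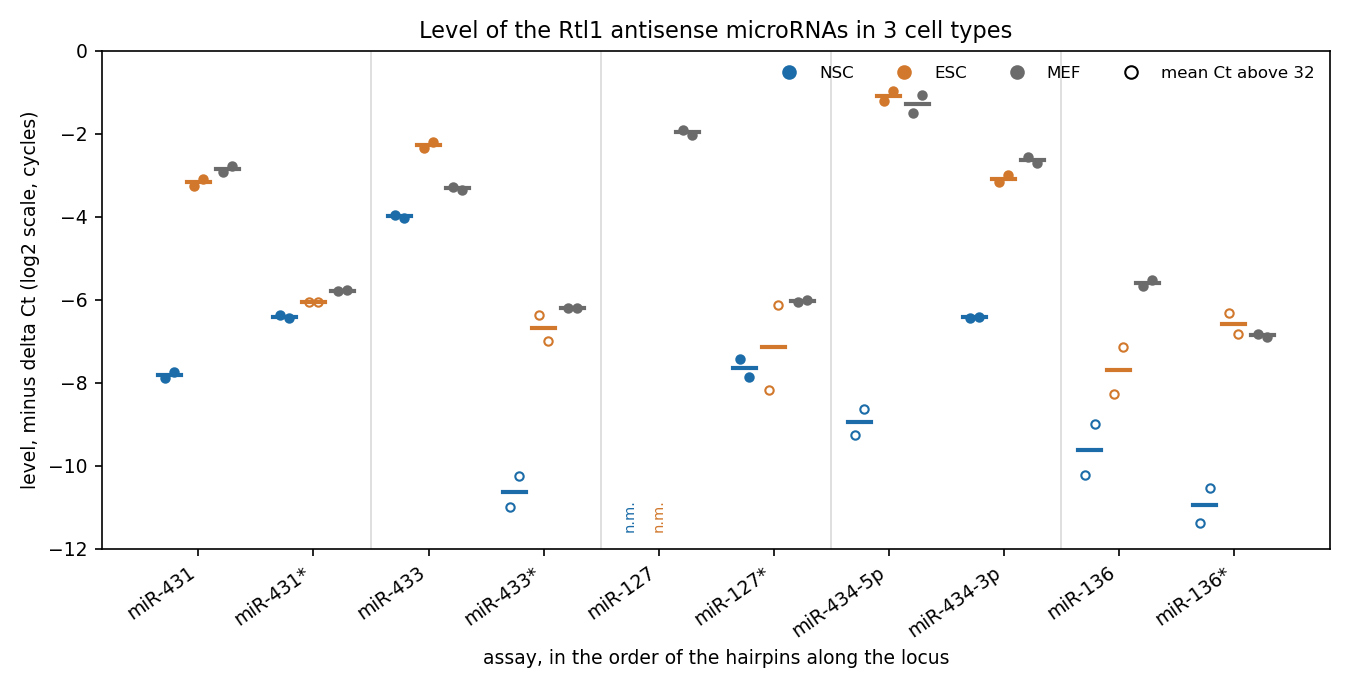
Level of each assay as minus delta Ct (log2 scale, in cycles) in NSCs, ESCs and MEFs, with a point per PCR run, a bar at their mean, open points where the mean Ct is above 32 and n.m. where no well was measured. The NSC level is the lowest in every assay measured there, by a wide gap for miR-431, both arms of miR-434, miR-433* and miR-136*, while for 6 of the 9 assays measured in both ESCs and MEFs these lie close together, with log2 folds between -0.48 and 0.28, the others being miR-433, miR-127* and miR-136.

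In MEFs all 10 assays had a mean Ct of at most 32. In NSCs 5 did, with 4 later and 1 not measured, and in ESCs 4 did, with 5 later and 1 not measured. In the whole screen 63.6% of the 709 assays had a mean Ct of at most 32 in NSCs, 53.9% in ESCs and 72.6% in MEFs.

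The arms of a hairpin come from the same precursor, and 4 hairpins had both arms measured in all 3 cell types. Of the 12 differences between the log2 folds of their arms, 10 were larger than 2 times the error of the runs. Within a hairpin the 3 values are tied, since the ESC over MEF value follows from the other 2. Except for miR-434 the arms lay on different plates, and the error leaves out the references. The share for other hairpins was not computed, so the count is not read as a trait of these members. The cleanest pair is miR-434, whose arms shared plate 1 and its reference. The difference of log2 folds, miR-434-5p minus miR-434-3p, was -4.52 ± 0.35 for NSCs over ESCs and -3.86 ± 0.39 for NSCs over MEFs, against 0.66 ± 0.27 for ESCs over MEFs. In delta Ct, 5p minus 3p was 2.52 cycles in NSCs, -1.997 in ESCs and -1.34 in MEFs, so the 5p arm was the later one in NSCs and the earlier one in ESCs and MEFs. With wells later than a Ct of 32 set to 32, the NSC differences were -3.65 and -2.99.

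miR-431 and miR-431*, which lay on different plates with a reference each, differed much as the arms of miR-434 did. The difference, miR-431 minus miR-431*, was -4.29 ± 0.11 for NSCs over ESCs and -4.35 ± 0.11 for NSCs over MEFs, and -0.06 ± 0.11 for ESCs over MEFs, which is within its error. With the mean of the microRNAs as the reference the ESC over MEF difference was 0.37. In delta Ct, miR-431 minus miR-431* was 1.41 in NSCs, -2.88 in ESCs and -2.94 in MEFs, so the arm named without a star was the later one in NSCs and the earlier one in ESCs and MEFs. The pair of miR-433 went the other way. There the star strand had the lower NSC folds, and miR-433 minus miR-433* was 2.22 ± 0.49 for NSCs over ESCs, 3.76 ± 0.38 for NSCs over MEFs and 1.54 ± 0.32 for ESCs over MEFs. With late wells set to a Ct of 32 these were 0.37, 1.07 and 0.70. The 0.37 cannot decide whether the difference was kept, since miR-433* was then at the limit in both NSCs and ESCs. For miR-136 minus miR-136* the values were 2.46 ± 0.97, 0.07 ± 0.75 and -2.39 ± 0.62 in the same order of comparisons, and the value for NSCs over MEFs is within its error. With late wells set to 32 they were 0.13, -1.40 and -1.53. The 0.13 stems from the reference RNAs alone, since all NSC and ESC wells of both assays were later than 32. It therefore cannot decide whether that difference was kept. The value for NSCs over MEFs was not kept, with the NSC wells of both assays at the limit. By the later names, in NSCs over ESCs the 5p arm had the lower fold in miR-431, miR-433 and miR-434, and the 3p arm in miR-136. For miR-433 and miR-136 this rests on star assays that were later than a Ct of 32 in both cell types and not called. The efficiency of each primer is unknown, and every fold takes it as 2-fold per cycle. Another efficiency changes a fold and the difference between arms, and it does not cancel in a delta Ct difference either. With 1.9-fold amplification for all assays, the miR-434 differences were -4.18 for NSCs over ESCs and -3.57 for NSCs over MEFs. Unequal efficiencies of the arms were not tested. Whether the primer of an arm also amplifies the other arm was not tested.

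By naming, the 5 measured assays without a star had a median log2 fold of -3.34 over ESCs and -4.02 over MEFs for NSCs, with 3 and 4 called lower. The 4 star assays had medians of -2.22 and -2.85, with 0 and 2 called lower. All 4 star assays had a mean Ct above 32 in ESCs, so the limit on Ct left no lower call over ESCs possible. They also all lay on plate 2, so the counts called do not compare the strands. For ESCs over MEFs the medians were -0.32 without a star and -0.38 with one.

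In the rest of the Dlk1-Dio3 region the NSC calls also went in 1 direction. The list held 66 further assays of 45 microRNA numbers, of which 42 are in the RefSeq microRNA table and all 42 of these lie between Dlk1 and Dio3. For NSCs over ESCs, 17 of 63 measured in both were called lower and 0 higher, with a median of -1.60, beside -3.34 for the Rtl1 antisense assays and -0.42 for all assays. For NSCs over MEFs, 26 of 63 were called lower and 0 higher, with a median of -1.90, beside -4.02 and -0.48. For ESCs over MEFs, 2 of 65 were called lower and 1 higher, and the medians were -0.25 for the rest of the region, -0.32 for the Rtl1 antisense assays and -0.11 for all assays. Among all assays, 14.9% were called lower and 2.95% higher for NSCs over ESCs, and 13.9% and 1.75% for NSCs over MEFs. For ESCs over MEFs the shares were 3.24% and 5.3%. Counts and medians are given without a test, since the assays are not replicates of a cell type.

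**Figure D3:**
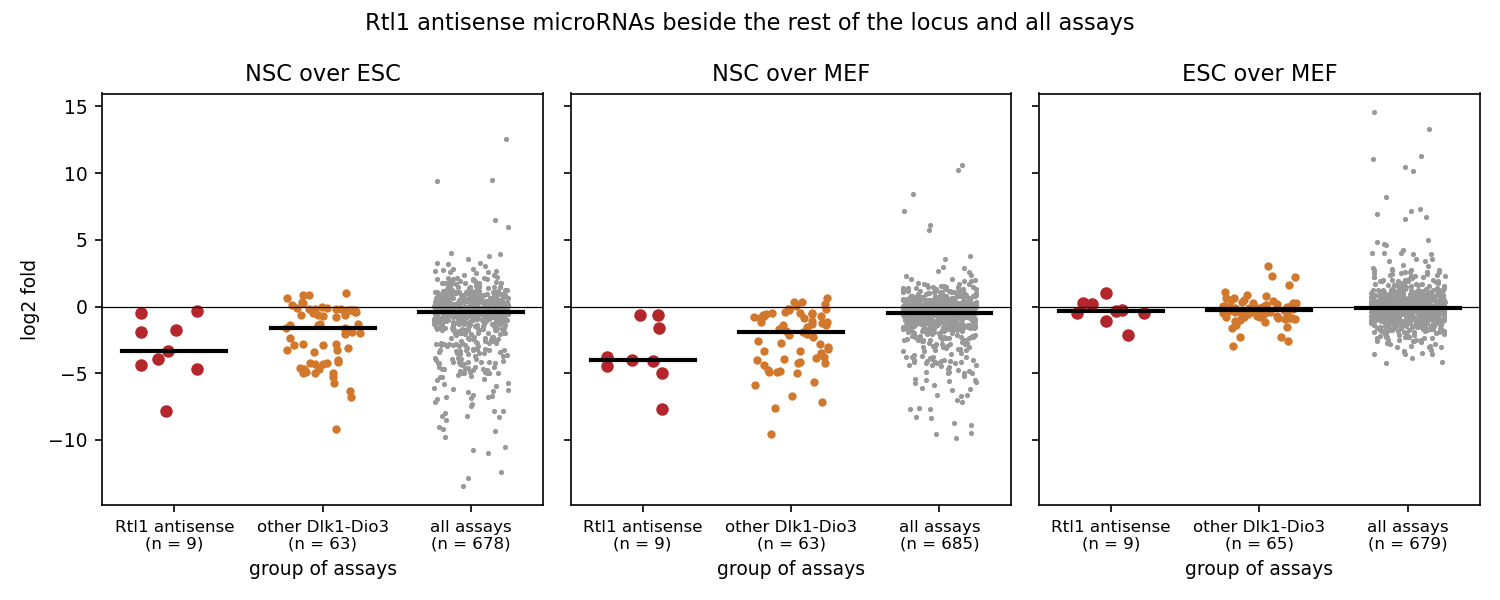
Log2 folds for NSCs over ESCs, NSCs over MEFs and ESCs over MEFs of the Rtl1 antisense assays, the other Dlk1-Dio3 assays and all assays, with a point per assay and a black bar at the median. The medians of both lists from the region lie below the bar of all assays in the NSC panels, though single assays lie above it. They are -3.34 and -1.60 against -0.42 over ESCs and -4.02 and -1.90 against -0.48 over MEFs, and lie near that bar in the ESC over MEF panel.

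Among the 72 assays of the region with a fold, miR-434-5p ranked 2 from the lowest in both NSC comparisons. The lowest was miR-379, at -9.19 ± 0.11 over ESCs and -9.57 ± 0.19 over MEFs. Its Ct was 33.94 and 34.16 in NSCs, 26.84 and 26.80 in ESCs, and 24.73 and 25.05 in MEFs. For ESCs over MEFs its log2 fold was -0.38 ± 0.16. miR-376c followed miR-434-5p over ESCs, at -6.75 from 1 NSC well at a Ct of 35.10. The smallest called folds over ESCs in the rest of the region were those of miR-540-3p at -2.79 ± 0.20 and miR-541 at -2.08 ± 0.03. miR-431 ranked 13 of 72 over ESCs and 8 over MEFs, and miR-431* ranked 54 and 56, so that the arms of this hairpin stood far apart in that order. Among all assays miR-434-5p ranked 17 from the lowest of 678 over ESCs and 9 of 685 over MEFs.

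Pattern likeness was described by the Euclidean distance, in cycles, between delta Ct values over the 3 cell types after each assay was centred on its own mean, among 533 assays with all wells measured and a Ct of at most 32 in at least 1 cell type. Each distance rests on 3 values, and all assays share the same 3 samples. Nearest to miR-431 was miR-496, at 0.058 cycles, followed by miR-380-5p at 0.354, both from the Dlk1-Dio3 region, and miR-1930 at 0.357. Nearest to miR-136* were miR-337-3p at 0.132, miR-409-5p at 0.203 and miR-485 at 0.291, all from the region. Nearest to miR-434-3p were miR-27a at 0.0722, miR-409-3p at 0.0975 and miR-152 at 0.148. miR-434-5p had no close neighbour, and the nearest were miR-196a at 0.989 and miR-145 at 1.03, both on the list of fibroblast microRNAs, and miR-142-3p at 1.08. miR-127* was nearest to miR-214, at 0.0457, and miR-433 to miR-470, at 0.0268. The nearest to miR-431* was miR-211, to miR-433* miR-29a and to miR-136 miR-21. Of the 27 neighbours of the 9 members, 8, or 29.6%, were other Dlk1-Dio3 assays, with miR-485 counted for both of its members, and 0 were Rtl1 antisense assays. Among the 533 assays, 9.19% were other Dlk1-Dio3 assays and 1.69% were members, and no test was made of either share. The closest pair among the members was miR-433* and miR-434-3p, at 0.505 cycles.

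The fibroblast microRNAs were also lowest in NSCs. For NSCs over ESCs 5 of 6 fibroblast microRNAs were called lower, with a median of -6.19, for NSCs over MEFs 5 of 6, with a median of -7.97, and for ESCs over MEFs 1 of 6, with a median of -1.10 and a range from -2.49 to -0.999. In ESCs over MEFs, miR-136 at -2.11 and miR-127* at -1.11 lay within that range, and the other 7 measured members lay above it. The part of the fibroblast microRNAs in the values of the Rtl1 antisense microRNAs was not tested.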

How the data were processed

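Ct values of 709 microRNA assays and 3 reference RNAs were read from the tables deposited by the authors, 1 per plate, with 2 PCR runs in each of 3 cell types. The authors tailed the RNA with poly-A, reverse transcribed it from an oligo-dT adaptor and amplified it with SYBR Green, with assays after miRBase version 14. The labels give 40 cycles, yet 5 NSC, 10 ESC and 14 MEF wells lie above a Ct of 40, and these were kept. The sources used here do not say how a Ct was set from the curve. The deposited delta Ct values were not used, because the ESC column of plate 1 subtracts a reference other than the mean of the 3 RNAs. The deposited folds and p-values, the authors' own comparisons, were not used either.

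Runs were averaged and empty wells left out. Log2 folds take amplification as 2-fold per cycle. The error is the SD of the runs divided by the square root of 2 in each cell type, added in quadrature. It covers the PCR runs of the assay alone and leaves out the spread of the reference wells and the choice of reference. Precision is limited by the 2 runs. All assays were processed alike and the computation was tested on simulated Ct values. Members, lists and the naming rule (all members, the 2 largest and 2 smallest called folds over ESCs in the rest of the region, and the 3 nearest assays) were chosen with earlier results of these data known. Alternatives were U6, RNU43 or U1 alone as the reference, the average of microRNAs detected by a Ct of 32, a Ct of 32 or 35 in place of late and empty wells, late assays left out, no Ct limit, runs within 1 cycle, each run alone, 1.9-fold amplification and an 8-fold call. Sequences are from RefSeq, and all 10 arms and 5 hairpins matched by name. Python 3.11.15, numpy 2.4.6 and matplotlib 3.10.9 were used.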

Additional observations from a re-analysis of the deposited data

How the results depend on the processing

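No paired analysis was possible because each cell type had 1 sample and the labels give no replicate numbers. Leaving out late assays, no limit on Ct, runs within 1 cycle and an 8-fold call change the calls but not the folds, and the spreadsheet values were run for counts alone. Under the others, 0 called folds changed sign. NSC folds above 0 belong to miR-431*, miR-433 and miR-127*, the last at 0.48 with RNU43 alone, 0.18 with the mean of the microRNAs and 0.75 in the first run, for NSCs over ESCs, and the first at 0.33 there with the mean of the microRNAs. For NSCs over ESCs, miR-431 and miR-434-3p were called under every alternative, and miR-434-5p under all but the one that leaves out late assays, which removed it. The count of 3 became 5 with no limit on Ct, with miR-136* and miR-433* added. For NSCs over MEFs the main setting called 6 of 9 members and 95 of 685 assays lower. With late assays left out 2 of 5 members were called, miR-431 and miR-434-3p, beside 41 of 427 assays. With wells set to a Ct of 32 the count was 5 of 10 (without miR-433* and miR-136*, with miR-127), beside 81 of 709. Runs within 1 cycle gave 5 of 8 (without miR-136), beside 72 of 562. There were 7 of 9 with U6 alone or U1 alone (miR-127* added), beside 131 and 153 of 685. A Ct of 35 gave 7 of 10 (miR-127 added), beside 103 of 709. The spreadsheet's MEF values gave 1, with no share computed. The 1 call for ESCs over MEFs was lost (0 calls) with U6 alone, RNU43 alone, the mean of the microRNAs, the second run alone, 1.9-fold amplification and an 8-fold call. Leaving out late assays or using only runs within 1 cycle removed miR-136 itself, which also left 0 calls. With wells set to a Ct of 32, miR-136 was lost too and miR-127 was called in its place, beside 17 of 709 assays called lower. miR-127 has no value in any NSC or ESC well. Its calls in both MEF comparisons rest on the Ct set for empty wells, which may have failed. Wells set to a Ct of 35 gave 2 calls (miR-127 and miR-136), beside 26 of 709 assays called lower. The first run alone gave 2 (miR-136 and miR-127*), beside 30 of 661. The spreadsheet values gave 3, with no share computed. The difference between the arms of miR-434 was -3.65 and -2.99 with wells set to a Ct of 32. The reference RNAs shifted unequally. From NSCs to ESCs, U6 on plate 1 shifted by 2.59 cycles, U1 by 2.31 and RNU43 by 0.99, and the median log2 fold of all assays for NSCs over ESCs was -0.42 with their mean, -0.94 with U6, -0.86 with U1, 0.56 with RNU43 and 0.26 with the mean of the microRNAs.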
